A study of Mus musculus with 36 samples.

Results

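Mouse duodenal organoids given repeated DAPT pulses with a period of 90 min for 48 h were compared with organoids given DMSO for 48 h, across all expressed genes. The comparison used 6 of the 36 libraries of the series, 3 for each arm, chosen by their labels alone. Duodenal organoids are self-renewing cultures of intestinal epithelium in which stem cells of the crypt renew absorptive cells and secretory cells. They came from C57BL/6 mice of either sex that were more than 8 weeks old, and cells were not enriched for any type. DAPT, a gamma-secretase inhibitor, was used at 1.38 µM for the 90 min period, and DMSO is its solvent. Both arms were passaged 2 days before the experiment, kept in a microfluidic chip under a flow of 200 µl per h, and collected in samples of 20 to 50 organoids. Nothing in the labels tells if DMSO was given in pulses, and effects of DAPT and of pulsing therefore cannot be told apart here. Nor is it stated if the replicates were separate cultures or mice, and the p-values reflect only the spread among these samples, which may be technical. The series as a whole pulsed organoids with periods of 90, 130 or 170 min for 24, 48 or 72 h, and its stated aim was to look for small shifts in which cell types are present.

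Notch is a signal between touching cells. A ligand such as DLL1 or DLL4 on one cell opens the Notch receptor of its neighbour to cleavage by gamma-secretase, and the freed receptor fragment joins the DNA-binding protein RBPJ to switch on repressors such as Hes1. In crypts, HES1 holds down Atoh1, the master factor of secretory fate. Cells that escape the signal turn on Atoh1 and the Delta ligands, and become goblet, Paneth or enteroendocrine cells. Goblet cells make the mucus layer and its gel-forming mucin MUC2. Blocking gamma-secretase continuously is known to convert crypt cells to goblet cells.

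Total counts of the 6 libraries ran from 828506 to 1207626, against 482741 to 1447330 over all 36, and 11462 of 34197 genes had enough counts to be tested. Pulsed replicates 1, 2 and 3 held 1207626, 1088495 and 1057429 counts, and the DMSO replicates 1193223, 830559 and 828506. Replicate 3 of both arms stood apart from the rest: the first principal component took 45.9% of the variance and placed DMSO replicate 3 at 44.1 and pulsed replicate 3 at 18.6, with the other 4 libraries between -21.4 and -8.75. These libraries had less RNA of absorptive and hormone-producing cells than the others. For absorptive cells the gap was wide in DMSO replicate 3 and smaller in pulsed replicate 3. The mean log2(CPM + 1) of 47 enterocyte genes was 5.44 in DMSO replicate 3 and 6.24 in pulsed replicate 3, against 6.73 to 7.18 in the others (CPM, counts scaled to a common library total with TMM factors). For 27 enteroendocrine genes it was 3.02 and 3.50, against 4.68 to 5.44. Libraries of the same replicate number deviated from their group means together, so fits with the number as a block are given where they move a count. Genes of fibroblasts, immune cells and endothelium were low in both arms. The 16 fibroblast genes in the table summed to 4.73 to 18.4 CPM in pulsed and 7.24 to 24.3 CPM in DMSO libraries, and 7 of the 16 had no count in any of the 6. The 16 immune genes summed to 14.7 to 17.0 and 15.7 to 21.8 CPM, with 6 at no count, and the 10 endothelial genes to 19.9 to 40.4 and 29.3 to 38.6 CPM, with 4 at no count.

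No gene differed between 90 min pulses and DMSO past an adjusted p of 0.05. edgeR's quasi-likelihood test on the 36 libraries called 0 of 11462 genes (0%), with a smallest adjusted p of 0.9999, and DESeq2 called 0. At an unadjusted p under 0.05 edgeR had 175 genes (1.53%), 123 higher after pulses (1.07%) and 52 lower (0.454%). DESeq2 had 71 higher and 27 lower. With the replicate number as a block in the 6 libraries alone, edgeR still called 0 genes, and 218 higher (2.04%) and 160 lower (1.49%) of 10707 had an unadjusted p under 0.05. The smallest adjusted p of that fit was 0.123, for Fer1l6. DMSO replicate 1 weighed most on the unadjusted counts, which became 300 higher and 164 lower without it, and without pulsed replicate 1 the higher count was 76. A second description needs no model: in 515 genes (4.49%) all 3 pulsed libraries lay above all 3 DMSO libraries, and in 433 genes (3.78%) all lay below.

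The sign of the change moved with abundance. Genes with a mean count up to 20 had a median log2 change of 0.10 and those with 100 to 300 counts of -0.05, while the median over all genes was 0.00. Overlap moved with abundance too. Of 5465 genes with 20 to 100 counts, 307 had all pulsed libraries above all DMSO libraries and 128 all below. Of 3388 genes with 100 to 300 counts these numbers were 60 and 230. Pair 1, whose totals differed by a ratio of 1.01, had medians from -0.01 to 0.07 over the 5 abundance classes. Pair 2, with a ratio of 1.31, ran from 0.33 in the lowest class to -0.31 in the highest. Pair 3, with a ratio of 1.28, was at 0.14 in the lowest class, -0.05 at 100 to 300 counts and 0.14 in the highest. Pairs 2 and 3 thus had opposite signs among the 23 genes of the highest class. The part of depth in the results was not tested.

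**Figure D1:**
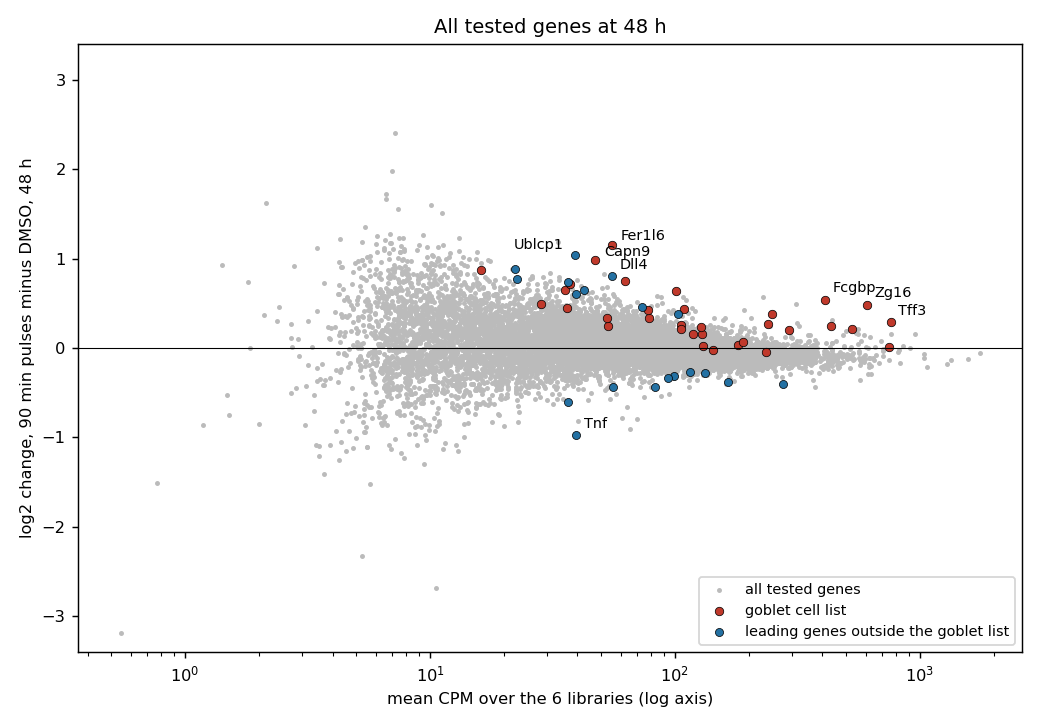
Log2 change between 90 min pulses and DMSO at 48 h (vertical) against mean CPM over the 6 libraries (horizontal, log axis) for the tested genes. Grey points are all genes, red points the 33 tested goblet genes and blue points the leading genes outside that list. Of the red points 31 lie above 0, at low and high abundance alike.

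Goblet cell genes stood higher after 90 min pulses, as a list and in each replicate pair, although none passed the test over all genes. Of 33 tested members 31 had a log2 change above 0, against 50.3% of all genes. The median was 0.29 (quartiles 0.20 and 0.49), against 0.00 over all genes. In 14 members (42.4%, against 4.49% of all genes) the 3 pulsed libraries all lay above the 3 DMSO libraries, and in 0 all lay below. The mean log2(CPM + 1) over the list was 7.21, 7.08 and 7.10 in the pulsed libraries and 6.74, 6.82 and 6.70 in the DMSO libraries, so the arms did not overlap. The difference was 0.47, 0.26 and 0.40 in pairs 1, 2 and 3, with 32, 24 and 28 of the 33 members higher. Since the scores of the arms did not overlap, any pairing would give differences above 0, and their sign adds nothing further. Over all genes the same difference was 0.00, 0.11 and 0.07. In 20 members (60.6%) the pulsed library was higher in all 3 pairs, as it was in 12.9% of all genes. At an unadjusted p under 0.05 there were 7 members, all higher, and 16 with the replicate block, also all higher, where 1.07% and 2.04% of all genes were higher. Leaving out pulsed or DMSO replicate 3, the libraries that stood apart, gave medians of 0.31 and 0.32. Whether there were more goblet cells or more goblet RNA per cell cannot be told apart in bulk RNA.

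Fer1l6, a ferlin-family membrane protein found in goblet cells, had the largest change of the list. It stood at 87.5, 62.5 and 77.1 CPM in pulsed replicates 1, 2 and 3 and at 29.5, 35.9 and 38.1 CPM in DMSO. The arms were well apart, and the log2 change was 1.15 (SE 0.37). Capn9, a calcium-dependent protease of the digestive tract, stood at 80.2, 50.7 and 56.7 CPM after pulses and 29.5, 39.6 and 26.2 CPM in DMSO. Its change was 0.99 (SE 0.37), again without overlap. Fcgbp, a large structural protein of mucus, stood at 473, 438 and 549 CPM against 343, 387 and 274 CPM, a change of 0.54 (SE 0.21). All 3 pulsed libraries exceeded the highest DMSO library. Tff3, the trefoil peptide secreted with mucin, stood at 867, 785 and 865 CPM against 672, 727 and 660 CPM, a change of 0.29 (SE 0.19) with no overlap.

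Muc2 itself overlapped between the arms, since DMSO replicate 2 was the highest of all 6 libraries. It stood at 474, 446 and 485 CPM after pulses and 343, 487 and 355 CPM in DMSO, a change of 0.25 (SE 0.24). Zg16, a lectin that binds bacteria in mucus, overlapped too: 781, 631 and 714 CPM against 499.8, 634 and 387 CPM, a change of 0.49 (SE 0.29). Of the other members without overlap, Bcas1 changed by 0.75 (SE 0.36), the potassium channel gene Kcnk6 by 0.72 (SE 0.29) and Ramp1, partner of the calcitonin receptor-like receptor, by 0.64 (SE 0.27). Agr2, a disulfide isomerase needed to fold mucin, changed by 0.27 (SE 0.16) and the Golgi calcium pump gene Atp2c2 by 0.34 (SE 0.23). The last 5 were Tpsg1, Creb3l4, Slc12a8, Spink4 and Klk1, with changes between 0.16 and 0.87. The members below 0 were Guca2a, which codes for guanylin, at -0.04 (SE 0.16) and Qsox1, a sulfhydryl oxidase, at -0.02 (SE 0.14). The list shares Fer1l6, Ramp1 and Creb3l4 with genes already known from these libraries to stand high after 90 min pulses, so its direction is not independent evidence.

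**Figure D2:**
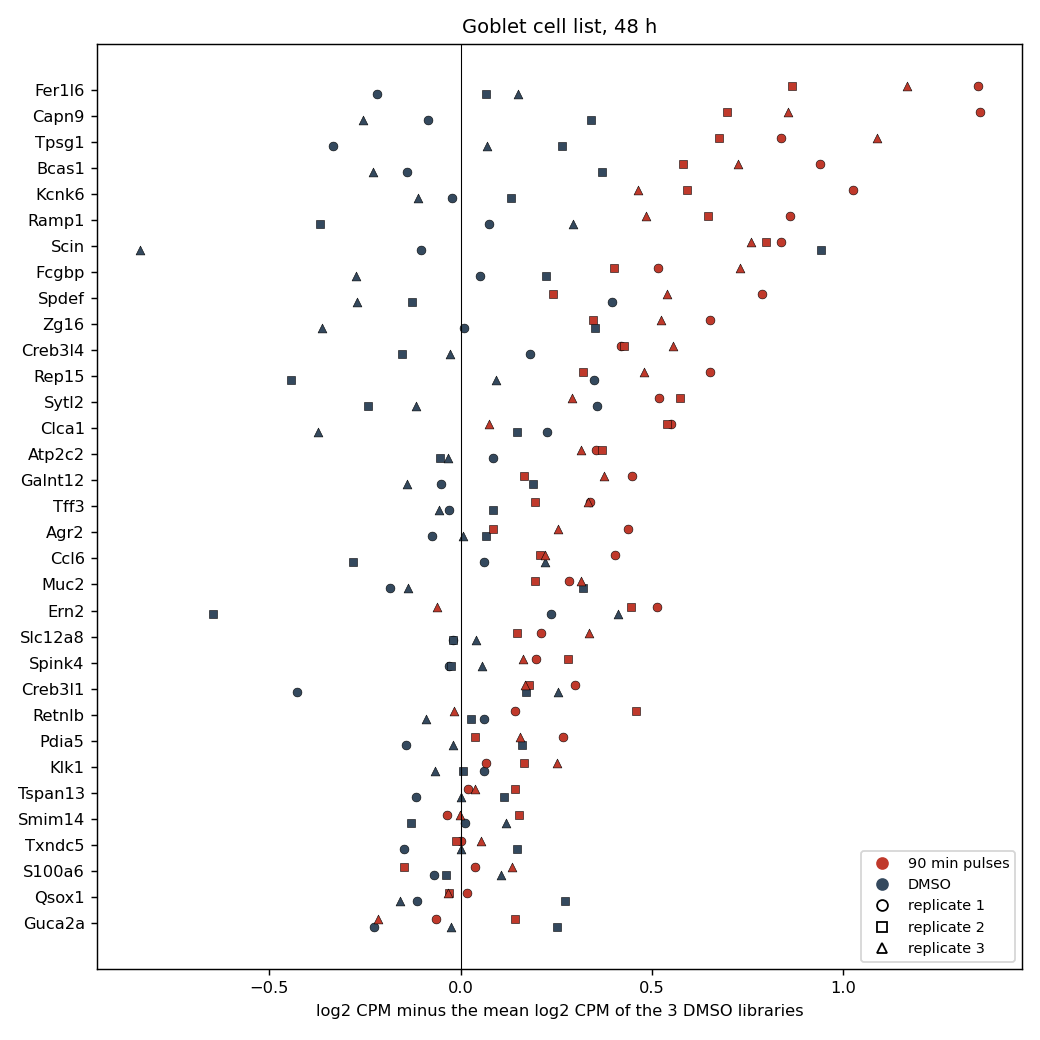
Log2 CPM of each tested goblet gene in the 6 libraries, as the difference from the mean log2 CPM of the 3 DMSO libraries (horizontal). Red marks are 90 min pulses, dark marks DMSO, and the shape gives the replicate number. In 14 of the 33 rows every red mark lies right of every dark mark, from Fer1l6 at the top to Klk1, and in 0 rows does the reverse hold.

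Regulators of secretory fates in general showed a smaller shift with the same sign. Their list shares members with the goblet list, among them Creb3l4 and Spdef, so the signs of these lists are not independent. Of 23 tested regulators of secretory lineages 18 lay above 0, with a median of 0.17, and 3 (13.0%, against 4.49% of all genes) did not overlap, all higher. Dll4, a Notch ligand made by cells that enter secretory fate, stood at 70.5, 68.8 and 72.4 CPM after pulses and 44.2, 26.0 and 50.0 CPM in DMSO. The pulsed libraries were close to each other and above all DMSO libraries, and the change was 0.80 (SE 0.23). Klf4, a zinc finger factor of goblet cell maturation, stood at 109, 105 and 104 CPM against 84.3, 59.5 and 66.6 CPM. Again all 3 pulsed libraries were above, with a change of 0.58 (SE 0.20). The third such gene was Creb3l4, a membrane-bound transcription factor of the endoplasmic reticulum, which changed by 0.45 (SE 0.21).

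Atoh1 overlapped between the arms. It stood at 122, 113 and 91.0 CPM after pulses and 102, 100.3 and 88.0 CPM in DMSO, higher in each pair, with a change of 0.17 (SE 0.20). Spdef, the factor that drives goblet maturation, stood at 39.7, 27.2 and 33.4 CPM against 30.3, 21.1 and 19.0 CPM, also higher in each pair, with a change of 0.49 (SE 0.30). Sox4, a factor of early secretory cells, was below 0 at -0.22 (SE 0.13), and Xbp1, the factor that expands the secretory apparatus, at -0.02 (SE 0.16). The list score differed by 0.14, 0.38 and 0.28 in the 3 pairs. Its median was 0.36 without DMSO replicate 1 and 0.07 without pulsed replicate 1, and 0.10 without DMSO replicate 3. Neurog3, the switch to enteroendocrine fate, had too few counts to be tested, with 10, 11 and 5 after pulses and 7, 3 and 0 in DMSO.

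The promoter windows of 3 genes named above are shown because their arms did not overlap and the factors of the Notch and Atoh1 step are known to bind short DNA words. Each is the 250 bases before the RefSeq start of the gene on GRCm38.p6, written 5′ to 3′ on the gene's strand, in lower case with any CAGCTG in capitals. CAGCTG, its own reverse complement, is the E-box that ATOH1-type factors can bind, and TGGGAA, searched on both strands, is the core of the RBPJ site; the words cannot contain one another.
Dll4, chr2:119325534-119325783, plus strand: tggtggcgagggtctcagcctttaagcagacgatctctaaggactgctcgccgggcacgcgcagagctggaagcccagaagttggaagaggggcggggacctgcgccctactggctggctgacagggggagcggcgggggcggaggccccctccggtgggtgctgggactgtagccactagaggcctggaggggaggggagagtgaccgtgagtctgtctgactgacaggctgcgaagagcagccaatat
Klf4, chr4:55532476-55532725, minus strand: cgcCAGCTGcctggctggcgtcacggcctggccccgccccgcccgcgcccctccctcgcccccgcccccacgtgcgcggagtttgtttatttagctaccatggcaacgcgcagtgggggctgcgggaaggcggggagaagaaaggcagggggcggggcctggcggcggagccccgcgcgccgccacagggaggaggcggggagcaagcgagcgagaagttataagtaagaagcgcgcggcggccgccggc
Fcgbp, chr7:28070986-28071235, plus strand: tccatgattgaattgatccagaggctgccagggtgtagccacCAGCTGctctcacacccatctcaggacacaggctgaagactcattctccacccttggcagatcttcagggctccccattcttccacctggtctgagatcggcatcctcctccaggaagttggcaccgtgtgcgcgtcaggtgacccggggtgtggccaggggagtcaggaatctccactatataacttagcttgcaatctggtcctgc

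Klf4 and Fcgbp held 1 CAGCTG each and Dll4 held 0, and TGGGAA was in none of the 3 windows. Windows for 19 goblet genes were matched by symbol, 30 in all, and 16.7% of them held CAGCTG and 30.0% TGGGAA. These goblet shares rest on 5 and 9 windows. Over the 11190 windows of tested genes the shares were 11.7% and 20.2%, and over all 32851 windows 13.0% and 21.6%. The 13 windows of the 8 matched goblet genes without overlap gave 15.4% and 30.8%. A match describes letters in the window, not a bound site.

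Notch targets differed little between the arms at 48 h. Of 8 tested Notch targets 2 lay above 0, and the median was -0.13. No member's arms were apart (0%), where 4.49% of all genes were fully higher and 3.78% fully lower. A list of 8 is too short to tell these shares apart. Hes1 stood at 274, 278 and 311 CPM after pulses and 295, 342 and 327 CPM in DMSO. It was lower in each pair, but pulsed replicate 3 exceeded DMSO replicate 1, and the change was -0.16 (SE 0.13). Olfm4, a stem cell gene that depends on Notch, spread widely within both arms: 426, 690 and 388 CPM against 762, 785 and 374 CPM, a change of -0.35 (SE 0.55). Myc changed by -0.17 (SE 0.15) and Sox9 by -0.13 (SE 0.15). With the library total as a covariate the median of the targets was -0.05. Nrarp, a feedback inhibitor of Notch, could not be tested, with 3, 3 and 1 counts after pulses and 4, 2 and 4 in DMSO.

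Ligands and receptors lay mostly just above 0, in 6 of 7 tested genes with a median of 0.06. By pair, however, 6, 2 and 3 of the 7 were higher after pulses. The median was 0.28 without DMSO replicate 3, 0.24 without pulsed replicate 2, 0.14 without DMSO replicate 2 and 0.03 without DMSO replicate 1. With 1 library left out, 4 to 6 of the 7 lay above 0. Apart from Dll4, Dll1 stood at 68.1, 57.1 and 83.6 CPM against 49.9, 65.7 and 47.6 CPM, a change of 0.36 (SE 0.20) in which pulsed replicate 2 fell among the DMSO values. Jag1 changed by 0.15 (SE 0.24) and the receptor gene Notch2 by 0.01 (SE 0.17), both with overlap. Notch1 had 5, 8 and 6 counts against 10, 4 and 5 and was not tested. Of 19 genes of the Notch machinery 11 lay above 0 with a median of 0.04. None had arms apart (0%), against 4.49% of all genes fully higher and 3.78% fully lower. Ncstn, the gamma-secretase subunit nicastrin, stood at 114, 89.7 and 101 CPM against 103, 155 and 121 CPM, a change of -0.29 (SE 0.13). Adam10, which cuts the receptor before gamma-secretase, changed by -0.19 (SE 0.12) and Rbpj by 0.20 (SE 0.15).

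The leading genes were the 10 higher and 10 lower with the smallest unadjusted p among those whose arms did not overlap and whose mean reached 20 CPM. None of the 20 passed over all genes in edgeR's test. Dll4 and Fer1l6 were among the higher 10. Spire2, an actin nucleator of vesicle transport, led them with 43.8, 44.4 and 50.2 CPM after pulses against 31.9, 22.3 and 27.4 CPM in DMSO, a change of 0.74 (SE 0.20). Ublcp1, a phosphatase of the proteasome, stood at 74.6, 41.7 and 42.7 CPM against 30.3, 17.3 and 28.6 CPM, a change of 1.04 (SE 0.33). Pulsed replicate 1 was the highest by far in that gene. P2ry1, a receptor for extracellular nucleotides, stood at 82.7, 80.6 and 92.0 CPM against 63.0, 74.3 and 48.8 CPM, a change of 0.45 (SE 0.14). The receptor phosphatase gene Ptprg changed by 0.64 (SE 0.20), the phosphatase gene Ppm1l by 0.89 (SE 0.28), the Rab regulator gene Tbc1d8 by 0.60 (SE 0.21), Ghdc by 0.78 (SE 0.27) and Cnep1r1 by 0.39 (SE 0.14).

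**Figure D3:**
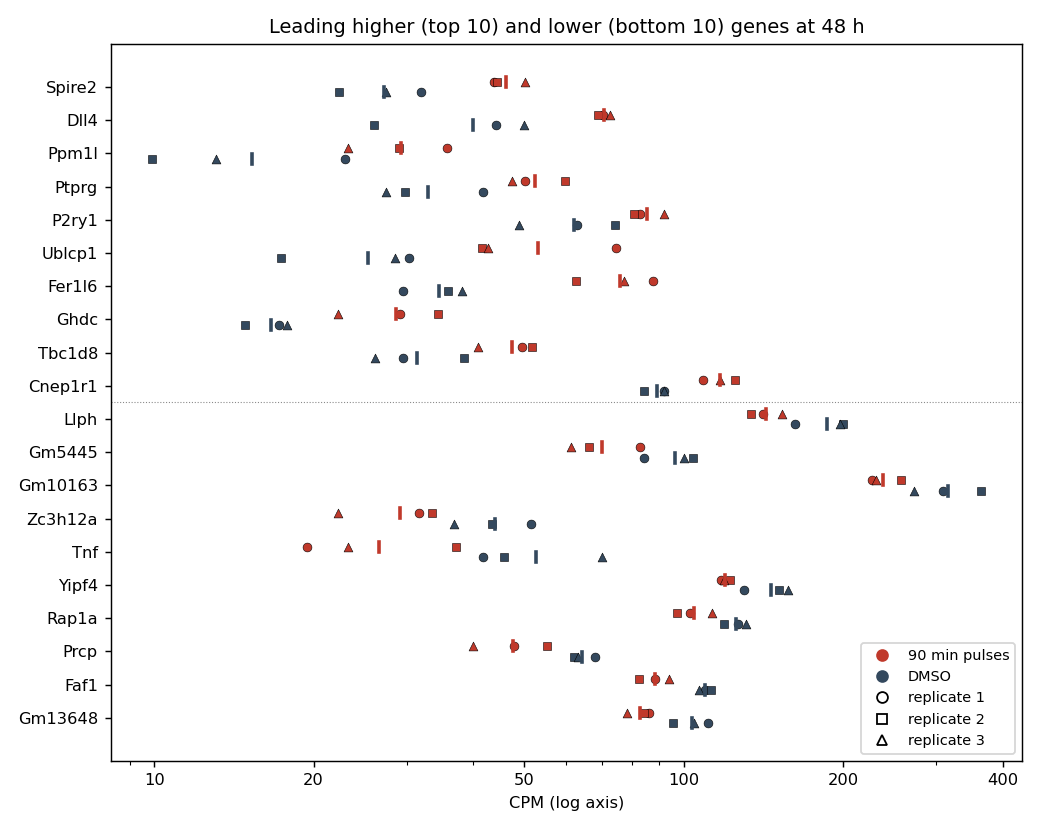
CPM (log axis) of the 10 leading higher genes (above the dotted line) and the 10 leading lower genes (below it) in each of the 6 libraries. Marks give arm and replicate, and short bars the mean of each arm. The arms do not overlap in any row, which the choice of genes required; the widest step is that of Fer1l6, 87.5, 62.5 and 77.1 CPM against 29.5, 35.9 and 38.1 CPM.

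The leading lower genes included Tnf and Zc3h12a, both of inflammation. Tnf, a cytokine, stood at 19.5, 37.1 and 23.2 CPM after pulses and 41.7, 45.8 and 70.2 CPM in DMSO, a change of -0.97 (SE 0.35). Every pulsed library was below every DMSO library. Zc3h12a, an RNase that destroys cytokine transcripts, stood at 31.6, 33.5 and 22.3 CPM against 51.5, 43.4 and 36.9 CPM, a change of -0.60 (SE 0.21). Other leading lower genes were Prcp, a carboxypeptidase, at -0.43 (SE 0.17), Llph at -0.38 (SE 0.11), Faf1 at -0.32 (SE 0.12), Yipf4 at -0.28 (SE 0.10) and the small GTPase gene Rap1a at -0.27 (SE 0.10). Gm13648, annotated as a long non-coding RNA, changed by -0.33 (SE 0.13). Gm5445 at -0.44 (SE 0.14) and Gm10163 at -0.40 (SE 0.13) are processed pseudogenes, whose reads may belong to their parent genes, so these values are uncertain.

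Genes of NF-kB and epithelial inflammation lay mostly below 0. Of 28 tested members 5 lay above 0, the median was -0.22, and 3 (10.7%, against 3.78% of all genes) lay fully below DMSO, with 0 fully above. Besides Tnf these were Nfkbia, the inhibitor that NF-kB itself switches on, and Bcl3, a related co-regulator. Nfkbia stood at 159, 179 and 162 CPM against 204, 223 and 195 CPM, a change of -0.31 (SE 0.13). Bcl3 stood at 22.7, 30.8 and 26.0 CPM against 40.1, 42.1 and 35.7 CPM, a change of -0.57 (SE 0.30). Duox2, an enzyme that makes hydrogen peroxide at the mucosal surface, overlapped between the arms but was lower in each pair: 72.1, 49.8 and 32.5 CPM against 122, 96.6 and 47.6 CPM, a change of -0.79 (SE 0.46). The list score differed by -0.24, -0.10 and -0.37 in the 3 pairs. It ran from 5.23 to 5.41 in pulsed and from 5.51 to 5.61 in DMSO libraries. Since the arms did not overlap in this score, any pairing would give differences below 0, and their sign adds nothing further. In these pairs 8, 13 and 5 of the 28 members were higher after pulses, so pair 2 was close to evenly split. The median was -0.11 without pulsed replicate 3 and -0.14 without DMSO replicate 3. The NF-kB subunit genes Nfkb1, at -0.05 (SE 0.13), and Rela, at -0.02 (SE 0.23), overlapped.

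The other epithelial lineages gave no direction that held over the pairs. Enteroendocrine genes had a median of -0.17 with 8 of 27 above 0, and their score differed by -0.62 in pair 1 but by 0.52 and 0.48 in pairs 2 and 3. Chgb, a granule protein of hormone-secreting cells, stood at 203, 282 and 95.7 CPM after pulses and 314, 253 and 77.3 CPM in DMSO. Without DMSO replicate 1 the median of the list became 0.57. Tuft cell genes behaved alike, with a median of -0.34, 3 of 12 above 0, score differences of -0.88, 0.46 and 0.29, and a median of 0.56 without DMSO replicate 1. Rgs13, a tuft cell gene, stood at 12.2, 14.5 and 6.50 CPM against 35.2, 9.91 and 7.14 CPM. DMSO replicate 1 thus held the highest level of both lists.

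Enterocyte genes had a median of 0.03 with 26 of 47 above 0, and their score differed by -0.23, -0.01 and 0.81 in the 3 pairs. The last value rests on DMSO replicate 3, and without that library the median was -0.35, with 4 of 47 above 0. Sis, the brush border sucrase-isomaltase, stood at 327, 467 and 310 CPM after pulses and 369, 513 and 115 CPM in DMSO. Reg3g, an antimicrobial lectin, was the 1 member fully below DMSO (2.13% of the list, against 3.78% of all genes). It stood at 71.3, 73.4 and 67.8 CPM against 77.7, 147 and 89.2 CPM, a change of -0.54 (SE 0.41).

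Crypt genes leaned slightly low. Stem cell genes had a median of -0.07 with 7 of 27 above 0, and 2 (7.41%, against 3.78% of all genes) lay fully below DMSO. The median was -0.21 without pulsed replicate 2, -0.12 without DMSO replicate 1 and -0.030 without pulsed replicate 1. Cd44, an adhesion receptor of crypt cells, was 1 of these, at 218, 258 and 224 CPM against 269, 275 and 295 CPM, a change of -0.26 (SE 0.15). It had 222 to 329 counts. Of all 3388 genes with a mean count of 100 to 300, 230 lay fully below DMSO and 60 fully above, with a median of -0.05. The part of abundance in the low values of crypt genes was not tested. Lgr5, the receptor that marks crypt stem cells, stood at 141, 167 and 122 CPM against 167, 154 and 142 CPM, a change of -0.11 (SE 0.29), and Ascl2, a stem cell transcription factor, changed by 0.01 (SE 0.15). Paneth cell genes had a median of -0.13 with 3 of 17 above 0, and 5 (29.4%, against 11.8% of all genes) were lower in all 3 pairs. Leaving out 1 library moved the median between -0.42, without pulsed replicate 2, and -0.014, without pulsed replicate 3. It was -0.35 without DMSO replicate 3, -0.056 without pulsed replicate 1 and -0.027 without DMSO replicate 2. Lyz1, the Paneth cell lysozyme, stood at 587, 783 and 353 CPM against 758, 840.0 and 390.3 CPM, lower in each pair though the arms overlapped, a change of -0.21 (SE 0.61). Defa17, a defensin, stood at 81.9, 119.6 and 91.0 CPM against 135, 142 and 115 CPM, also lower in each pair with overlap, a change of -0.43 (SE 0.29). With the replicate block in the 6 libraries edgeR gave Defa17 an unadjusted p of 0.00168 and an adjusted p of 0.951, against an unadjusted 0.150 in the fit of all libraries. Mptx2 was the 1 Paneth member fully above DMSO (5.88% of the list, against 4.49% of all genes), at 0.49 (SE 0.41). Neither list's score kept its sign over the pairs, with stem cell differences of -0.13, 0.09 and -0.22 and Paneth differences of -0.23, 0.08 and 0.03.

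Proliferation genes lay a little below 0, with medians of -0.06 over 42 genes of G2 and M phase and -0.08 over 40 of S phase. Of these 12 and 11 lay above 0. In all 3 pairs 13 (31.0%) and 8 (20%) were lower, against 11.8% of all genes, and 4 and 4 were higher. The scores differed by 0.02, 0.03 and -0.13 for G2 and M phase and by 0.03, 0.00 and -0.18 for S phase, so neither kept its sign. All genes with 100 to 300 counts had a median of -0.05. Tacc3, a spindle protein, stood at 109, 169 and 177 CPM after pulses and 162, 209 and 219 CPM in DMSO, a change of -0.37 (SE 0.14), and Mki67 changed by -0.10 (SE 0.12). Without DMSO replicate 3 the medians of the G2 and M phase list and the S phase list were 0.01 and 0.00. Genes of cholesterol synthesis (median -0.01 over 24), fatty acid oxidation and PPAR targets (0.03 over 28, and -0.08 without DMSO replicate 3), the p53 response (0.01 over 27), the unfolded protein response (-0.01 over 35) and the interferon response (-0.02 over 20) had medians near that of all genes. Fetal-like and YAP target genes had a median of -0.13 with 6 of 27 above 0, and pair differences of -0.12, 0.27 and -0.57. Mitochondrially encoded genes had a median of -0.12 over 9 genes, which was 0.02 with the library total as a covariate.

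**Figure D4:**
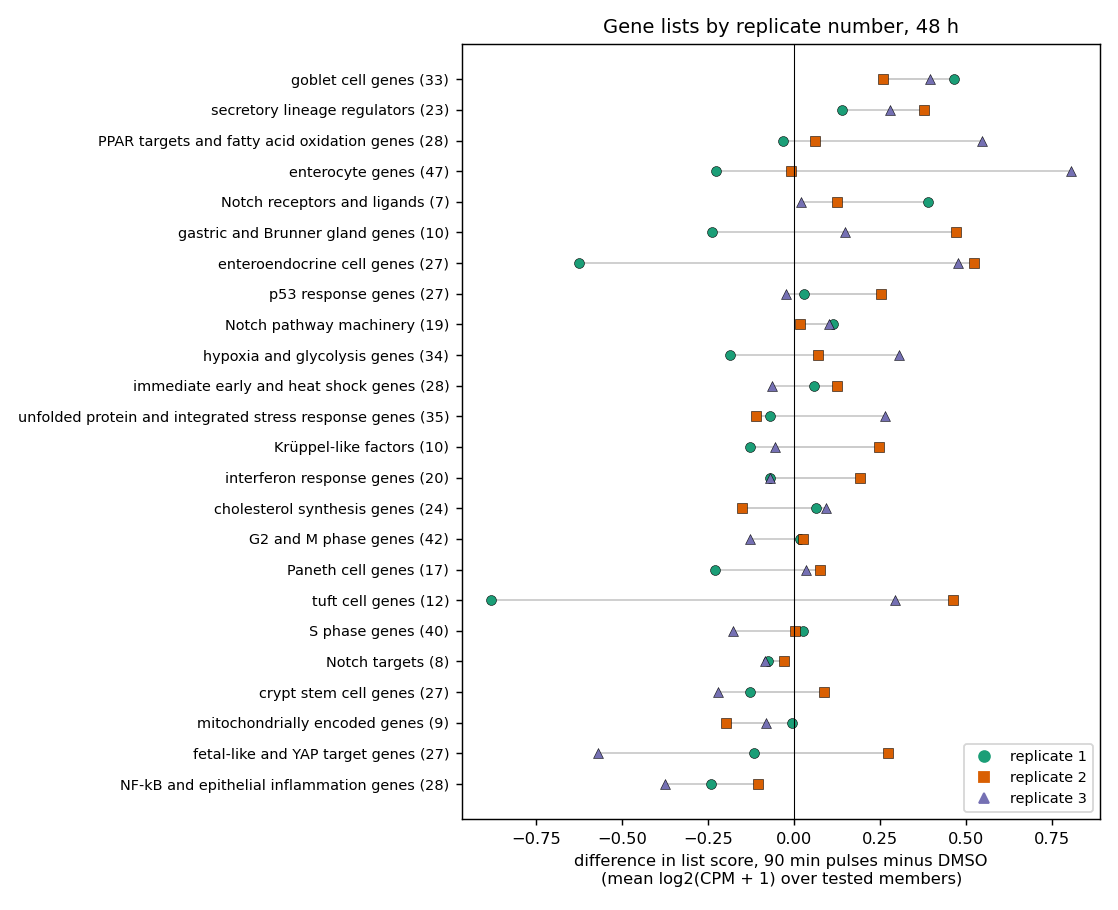
Difference in list score between the 90 min library and the DMSO library of the same replicate number at 48 h (horizontal, mean log2(CPM + 1) over tested members, number tested in brackets). Each row is a gene list and each mark a pair. All 3 marks of the goblet list lie above 0 (0.47, 0.26 and 0.40) and all 3 of the NF-kB list below (-0.24, -0.10 and -0.37). This is not particular to these lists. The marks of secretory regulators, Notch receptors and ligands, and Notch machinery also all lie above 0. Those of Notch targets and mitochondrially encoded genes all lie below. The enteroendocrine, tuft and enterocyte lists spread over both sides.

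The same pulses at 24 and 72 h gave separate libraries in which to look at these genes. The totals of the arms lay further apart at 24 h, with means of 1066190 in pulsed and 697589 in DMSO libraries. At 48 h these means were 1117850 and 950763, and at 72 h 991783 and 929438. The part of depth in the values at 24 and 72 h was not tested. The interaction tests compared the 48 h difference with that at each other duration, and 0 of 11462 genes passed in either by edgeR or DESeq2. Unadjusted, edgeR had 219 genes (1.91%) against 24 h and 104 (0.907%) against 72 h, and DESeq2 120 and 42. Of the 123 higher genes at 48 h, 98 (79.7%) lay above 0 at 24 h and 76 (61.8%) at 72 h, against 53.9% and 50.5% of all genes. Of the 52 lower genes 31 (59.6%) lay below 0 at 24 h and 33 (63.5%) at 72 h, against 46.1% and 49.5%.

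Goblet genes lay above 0 at all 3 durations in most members, 23 of 33 at 24 h with a median of 0.17 and 29 of 33 at 72 h with a median of 0.16. Fer1l6 changed by 0.60 (SE 0.39) at 24 h and 0.75 (SE 0.36) at 72 h. Its 48 h change of 1.15 was larger by 0.55 (SE 0.55) and 0.40 (SE 0.52), neither past the test. Ramp1 changed by 0.60 (SE 0.31) and 0.65 (SE 0.28), against 0.64 at 48 h. Dll4 changed by 0.64 (SE 0.25) at 24 h and 0.18 (SE 0.23) at 72 h, and the difference between 48 and 72 h was 0.62 (SE 0.32). Hes1 changed by -0.44 (SE 0.13) at 24 h and -0.04 (SE 0.13) at 72 h, and its 48 h change differed from that at 24 h by 0.28 (SE 0.19). Tnf changed by -0.26 (SE 0.37) and -0.05 (SE 0.36) at 24 and 72 h, nearer to 0 than at 48 h, but the differences between durations did not pass.

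**Figure D5:**
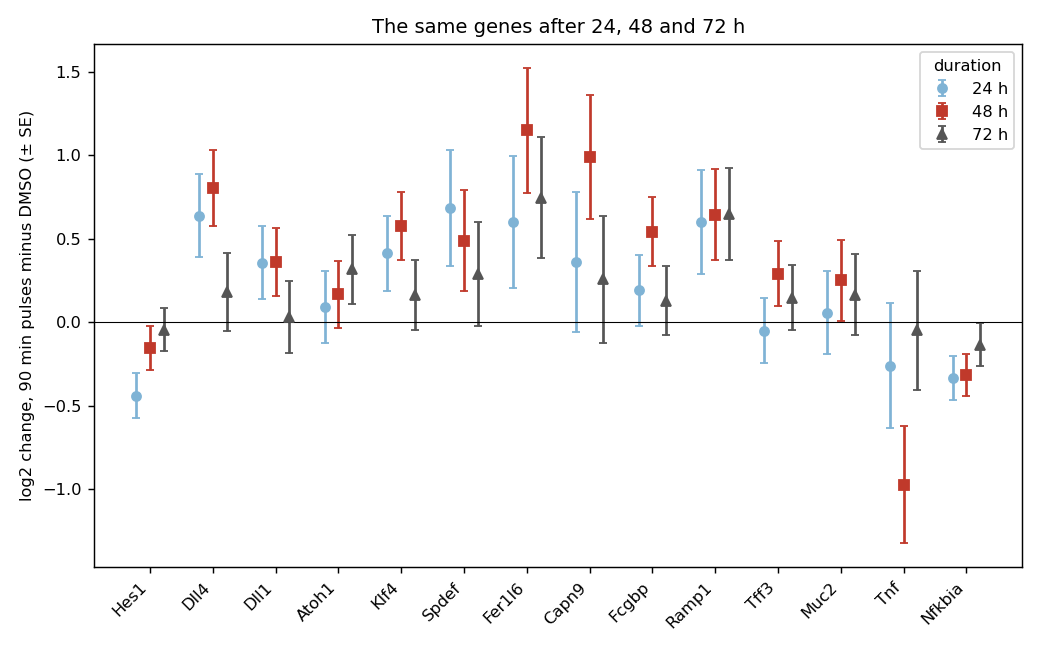
Log2 change between 90 min pulses and DMSO after 24, 48 and 72 h for 14 named genes, with SE bars from edgeR. Each colour is a duration with 3 libraries in each arm. Fer1l6 and Ramp1 lie above 0 at every duration, Dll4 is at 0.64, 0.80 and 0.18, and Tnf is at -0.26, -0.97 and -0.05.

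The genes with the smallest p in the interaction with 24 h were Gmfb, Tspyl2 and Mkrn2. Gmfb, glia maturation factor beta, stood at 113, 134 and 125 CPM against 110, 108 and 115 CPM at 48 h, but at 110, 104 and 112 CPM against 139, 158 and 133 CPM at 24 h, so that the changes differed by 0.55 (SE 0.16). Mkrn2 overlapped at 48 h, with 38.1, 37.1 and 35.3 CPM against 28.6, 45.8 and 46.4 CPM, a change of -0.10 (SE 0.22). Its change at 24 h was 1.04 (SE 0.26), so that the changes differed by -1.15 (SE 0.34). Tspyl2 rests on few counts. For the interaction with 72 h they were Ublcp1, Kif13a and Prkag2. Ublcp1 stood at 25.6, 28.7 and 27.3 CPM after pulses and 29.3, 56.9 and 42.3 CPM in DMSO at 72 h, the opposite order to 48 h, and the changes differed by 1.72 (SE 0.47). Kif13a, a kinesin, differed by 0.52 (SE 0.18) and Prkag2, an AMPK subunit, by 0.67 (SE 0.24).

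The 90 min libraries at 48 h were also set against the libraries of slower pulses at 48 h, in which the dose differed as well: 2 µM at 130 min, and at 170 min a dose for which the labels name more than 1 value. edgeR and DESeq2 called 0 genes in either comparison. Unadjusted, edgeR had 342 genes (2.98%) against 130 min and 220 (1.92%) against 170 min, and DESeq2 214 and 125. Goblet genes lay above 0 in 18 of 33 members against 130 min, with a median of 0.01, and in 26 of 33 against 170 min, with a median of 0.13. Over all 11462 genes, 5934 lay above 0 against 130 min and 5613 against 170 min. The goblet share against 130 min was thus near that of all genes. Fer1l6 was higher at 90 min by 0.68 and 0.37 (log2) and Dll4 by 0.25 and 0.37, none past the test, while Muc2 differed by 0.01 and 0.30. Hes1 stood at 347, 379 and 353 CPM at 130 min and 311, 346 and 408 CPM at 170 min, against 274, 278 and 311 CPM at 90 min. The 90 min libraries were the lowest of the 3 periods in this gene, with differences of -0.32 and -0.30.

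Vstm5 had the smallest p against 130 min, with 39.7, 30.8 and 55.7 CPM at 90 min and 11.7, 30.0 and 21.5 CPM at 130 min, a difference of 1.00 (SE 0.27). The predicted genes Gm10801 and Gm10800 followed, and both were high in the 130 min libraries, Gm10801 at 247, 179 and 97.5 CPM against 1060, 928 and 396 CPM. Against 170 min, Nbeal2, a granule trafficking protein, stood at 43.8, 50.7 and 49.2 CPM and 18.4, 29.8 and 25.9 CPM, a difference of 0.95 (SE 0.25). Enah, an actin regulator, stood at 29.2, 4.53 and 52.0 CPM at 90 min and at 1.67, 6.14 and 2.16 CPM at 170 min. Enah was also among the genes that set replicate 3 apart, at 71.4 CPM in DMSO replicate 3. Oasl2, an interferon-induced gene, was high in 1 library at 170 min, with 82.9, 7.01 and 4.32 CPM there, and stood at 3.24, 6.34 and 0.929 CPM at 90 min.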

How the data were processed

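Sort-seq libraries, in which a barcode tags each molecule of polyadenylated RNA, were made from 36 organoid samples, per the labels' protocols. The submitters' processing notes name STAR 2.7.8a and UMI-tools 1.1.1. The deposited table holds whole-number counts for each gene symbol and library and looks unnormalized. Build, annotation and counting rule: not given in the sources used here. All columns were mapped to samples by their names.

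Genes were kept with filterByExpr and tested with edgeR 4.0.16 in R 4.3.3 (TMM scaling, 12 groups of 3 libraries, robust quasi-likelihood F tests, two-sided, 24 residual degrees of freedom, Benjamini-Hochberg over all tested genes, threshold 0.05). Totals of 828506 to 1207626 counts in the 6 libraries limit the precision of genes with few molecules. A change is log2 of 90 min pulses over DMSO, and its SE is the change divided by the root of F. List scores are means of log2(CPM + 1). Each list was described by its counts and median, with no test. DESeq2 1.42.0, other scalings, no filter, a depth covariate, replicate blocks and leaving out libraries were alternatives; cyclic loess scaling with limma 3.58.1 was added after the data were seen. The fits were tested on simulated data.

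Replicate numbers come from the labels, which do not say what they mark. Deviations from the group mean correlated across genes at r of 0.25, 0.17 and 0.49 between libraries numbered 1, 2 and 3, all above 0.1, so the numbers were taken to pair them; pulsed replicate 2 correlated more with DMSO replicate 1 (0.35). Named genes were the 10 leading genes in each direction, a panel of 25, up to 3 members per list by unadjusted p and the 3 leading genes of other comparisons. Other members were chosen after their values were seen. The members, the 27 lists and the rules were chosen with earlier results of these data known.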

Additional observations from a re-analysis of the deposited data

How the results depend on the processing

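No gene passed the threshold in any of the 5 comparisons under any alternative. The numbers of genes at an unadjusted p under 0.05, 123 higher and 52 lower, became 309 and 169 with no filter on low counts and 71 and 27 by DESeq2. In the 6 libraries alone the lower count was 95, and with the replicate block in those libraries the counts were 218 and 160. Leaving out 1 library in turn gave 76 to 300 higher and 52 to 164 lower genes. It also gave 812 to 1473 genes with all pulsed libraries above DMSO and 736 to 1444 below; fewer libraries overlap less by construction. The goblet list had 13 to 21 members with arms apart, all higher, while the share of all genes fully higher ran from 3.97% to 12.9%. The 21 members came without DMSO replicate 2, where that share was 9.02%. A count of 13 was reached among genes with a mean of at least 20 CPM, where it was 3.97%. The median of the goblet list was 0.26 to 0.35. Of 105 named genes 16 changed sign somewhere, in 34 of 1571 values. Notch2 was -0.0021 with the replicate block within durations. Mmp7 was 0.0028 with library totals, 0.044 with the depth covariate and 0.082 by cyclic loess, by which Fabp1 was 0.19 and Apoa4 0.033. Leaving out 1 library at a time, the changes that crossed 0 were Notch2 from -0.094 to 0.11, Ascl2 from -0.12 to 0.080, Lyz1 from -0.51 to 0.043, Mmp7 from -0.11 to 0.12, Chga from -0.59 to 0.57, Chgb from -0.56 to 0.24, Dclk1 from -0.93 to 0.88, Alpi from -0.052 to 0.56, Fabp1 from -0.58 to 0.15, Apoa1 from -0.37 to 0.46, Apoa4 from -0.87 to 0.27, Sis from -0.26 to 0.57, Alox5ap from -1.31 to 0.99, Rgs13 from -1.07 to 0.38, Cdhr5 from -0.42 to 0.0044 and Vim from -0.79 to 0.56. The causes were not tested. The depth of 828506 to 1207626 counts a library limits genes with few counts, as the SEs of such genes show (Enah, with 4 to 60 counts, had an SE of 0.67).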
